A study of Mus musculus with 6 samples.

Results

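Oxidative phosphorylation was examined here through the nuclear genes for the subunits of its protein complexes, in undifferentiated mouse embryonic stem cells (mESCs) with and without *Alkbh1*. The rule for choosing the genes used names and no measured values, although it was set with earlier results of these data known. Every gene whose symbol in the array table began with *Nduf*, *Uqcr*, *Cox4* to *Cox8* or *Atp5*, or was *Cyc1* or *Sdha* to *Sdhd*, was taken, and each gene was represented by its brightest probe set. This gave 36 of the 14411 genes in the table, covered by 72 of its 33142 probe sets. Complex I was represented by 9 genes, complex II by 1, complex III by 2, complex IV by 13 and complex V by 11. Subunit genes listed under other or no symbols, such as *Ndufb11*, were not members.

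Wild-type (WT) and *Alkbh1-/-* mESCs of C57BL/6 background were analysed undifferentiated (day 0) and untreated at passage 8, with 3 arrays for WT and 3 for *Alkbh1-/-*. Both genotypes came from littermate blastocysts of heterozygous matings and were grown with leukemia inhibitory factor on irradiated embryonic fibroblasts, so RNA of feeder cells may be present in both. The *Alkbh1-/-* cells carry the deletion in every mESC, and the labels name a single line per genotype without saying whether the arrays came from separate cultures, so the line and the genotype cannot be told apart. The tables analysed here hold the authors' means and no values of single arrays, so the level of a gene is given as their mean over all 6 arrays, the genotype means are printed without an error, and no difference was tested.

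Oxidative phosphorylation takes place in the inner mitochondrial membrane. Complexes I and II pass electrons from NADH and succinate to ubiquinone, complex III passes them on to cytochrome c, and complex IV, cytochrome c oxidase, reduces oxygen with them. The proton gradient that complexes I, III and IV build drives complex V, the ATP synthase. Most subunits are encoded in the nucleus, and a core set is encoded in mitochondrial DNA. Pluripotent stem cells are known for high glycolysis and small, immature mitochondria, although mouse ESCs in the naive state also respire.

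The sequence before the start of a gene holds sites for the factors that control it, and 4 promoters are shown because the results below turn on these genes. *Ndufa1* was the only member whose brightest probe set had a mean in each genotype, *Cox6a1* had the highest level, and *Cox8a* and *Cox8b* are the ubiquitous and the muscle form of the same subunit. Each window runs from 250 bases before to 50 bases after the start of the gene in RefSeq (GRCm38.p6), is printed 5′ to 3′ on the strand of the gene, and has in capitals any match to the 3 motifs searched. All 4 windows lie on the minus strand, at chrX:37191189-37191488 for *Ndufa1*, chr5:115348909-115349208 for *Cox6a1*, chr19:7217567-7217866 for *Cox8a* and chr7:140900397-140900696 for *Cox8b*.
Ndufa1: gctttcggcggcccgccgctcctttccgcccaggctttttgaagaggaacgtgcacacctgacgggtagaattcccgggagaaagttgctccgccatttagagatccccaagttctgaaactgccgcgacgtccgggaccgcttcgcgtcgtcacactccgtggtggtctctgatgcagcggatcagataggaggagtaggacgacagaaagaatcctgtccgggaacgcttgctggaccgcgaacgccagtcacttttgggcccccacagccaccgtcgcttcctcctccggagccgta
Cox6a1: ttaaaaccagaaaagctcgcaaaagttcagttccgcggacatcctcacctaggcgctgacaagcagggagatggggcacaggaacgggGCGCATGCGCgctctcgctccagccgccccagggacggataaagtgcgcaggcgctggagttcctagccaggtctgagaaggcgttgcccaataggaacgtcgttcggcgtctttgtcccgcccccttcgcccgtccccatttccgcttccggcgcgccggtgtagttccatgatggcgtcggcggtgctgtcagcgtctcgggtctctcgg
Cox8a: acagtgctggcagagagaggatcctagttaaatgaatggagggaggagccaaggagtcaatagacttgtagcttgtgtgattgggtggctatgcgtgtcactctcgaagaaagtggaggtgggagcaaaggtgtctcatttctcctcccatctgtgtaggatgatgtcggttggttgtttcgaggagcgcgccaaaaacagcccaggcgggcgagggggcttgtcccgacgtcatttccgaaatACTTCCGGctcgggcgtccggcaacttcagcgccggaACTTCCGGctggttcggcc
Cox8b: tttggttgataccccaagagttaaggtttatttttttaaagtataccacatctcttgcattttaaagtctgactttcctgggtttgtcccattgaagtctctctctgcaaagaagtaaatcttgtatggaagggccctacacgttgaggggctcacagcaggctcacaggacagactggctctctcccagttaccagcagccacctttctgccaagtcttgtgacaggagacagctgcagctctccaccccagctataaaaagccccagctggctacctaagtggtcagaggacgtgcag

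The *Cox6a1* window held the core motif of NRF1, a factor known for driving respiratory chain genes, on both strands in a single palindromic stretch. The *Cox8a* window held the motif of GABP and other ETS factors at 2 places, both on the opposite strand. The windows of *Ndufa1* and *Cox8b* held no match to the 3 motifs searched. G and C made up 60.7% of the *Ndufa1* window, 63% of that of *Cox6a1*, 56% of that of *Cox8a* and 48.3% of that of *Cox8b*.

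Most of the subunit genes lay among the brightest probe sets of the table. Of the 36 members, 32 were above the 90th percentile of all probe sets, which lies at a log2 level of 10.07, and their median was 12.15. Taking the brightest probe set of a gene raises this count, and by the same choice 1886 of all 14411 genes were above that percentile. Over all probe sets the median level was 6.31, with a range of 3.22 to 14.67. The 4 members at or below the 90th percentile were *Cox4b*, *Cox6a2*, *Cox7ah* and *Cox8b*, all of them genes for tissue-restricted forms of complex IV subunits. The brightness of a probe set also depends on its oligonucleotides, so levels are given with their percentile as a description, and the order of genes is not an order of transcript amounts.

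**Figure D1:**
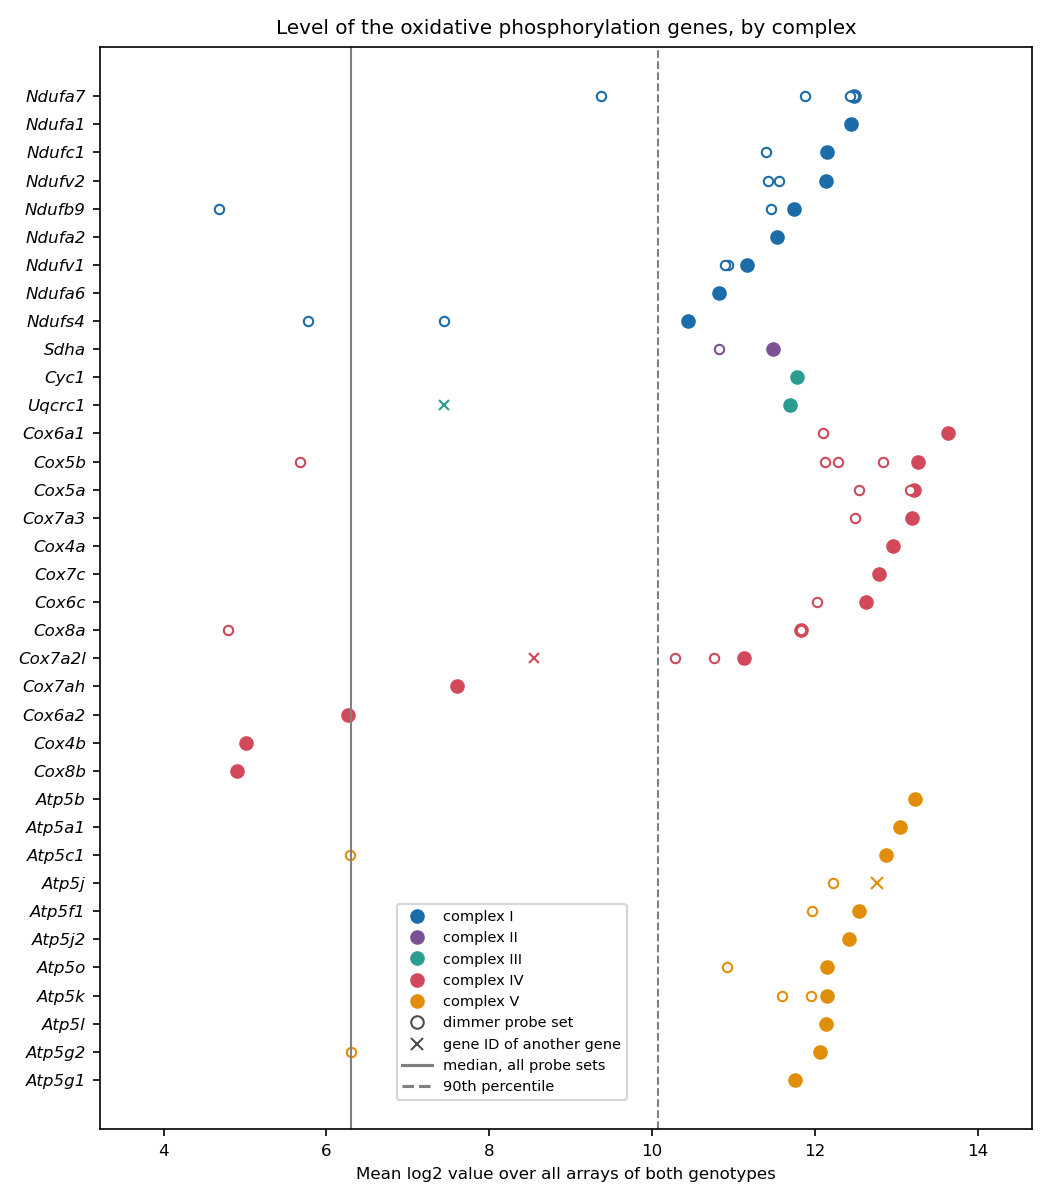
Each filled point is the brightest probe set of a gene, open points are its other probe sets, crosses are probe sets whose gene ID is that of another gene (the brightest of *Atp5j* among them), and the x axis is the authors' mean log2 value over all 6 arrays. The solid line is the median of all probe sets (6.31) and the dashed line their 90th percentile (10.07), and 32 of the 36 genes lie to the right of the dashed line.

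Complex I, the NADH dehydrogenase, had a median level of 11.74 over its 9 genes. *Ndufv1* and *Ndufv2*, for subunits of the module that oxidizes NADH, had levels of 11.17 and 12.13. The other 7 genes are for accessory subunits. *Ndufa7* had the highest level in the complex, 12.48, and *Ndufs4*, whose loss gives a mouse model of Leigh syndrome, had the lowest, 10.44, at the 92.1 percentile. *Ndufa1* stood at 12.44, *Ndufc1* at 12.15, *Ndufb9* at 11.74, *Ndufa2* at 11.53 and *Ndufa6* at 10.82. No member of complex I was below the 90th percentile of all probe sets.

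The single member of complex II, *Sdha*, for the flavoprotein that oxidizes succinate, had a level of 11.48. Complex III was represented by *Cyc1*, for cytochrome c1, at 11.77 and *Uqcrc1*, for a core protein of the complex, at 11.69. All 3 genes were at or above the 96.2 percentile.

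Complex IV had a median level of 12.63 over its 13 genes, with a range of 4.90 to 13.63. With the mean over all probe sets of a gene in place of the brightest, the median was 11.24. Without probe sets whose suffix marks possible cross-hybridization or several transcripts, it was 8.55 over 11 genes. These include the tissue-restricted forms but not *Cox6a1* or *Cox4a*, and 8.55 is the level of the *Cox7a2l* row with the gene ID of *Pygb*. Among the complex IV genes for subunits found in most tissues, *Cox6a1* had the highest level of all members, 13.63, as measured by the brightest probe sets. *Cox5b* and *Cox5a*, for subunits that face the matrix, had levels of 13.26 and 13.21. *Cox4a*, the symbol in the table for *Cox4i1*, had a level of 12.96, and *Cox7a3*, the symbol for *Cox7a2*, a level of 13.19. *Cox7c* stood at 12.78, *Cox6c* at 12.63 and *Cox8a* at 11.83. *Cox7a2l*, whose product is known for joining complexes III and IV in supercomplexes, had a level of 11.12. These 9 genes were all above the 90th percentile.

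The 4 members for tissue-restricted forms were the dim ones of the complex. *Cox6b2*, for a testis form, carries no symbol in the table and so was no member, and it stood at 10.17, at the 90.6 percentile. *Cox8b*, the heart and skeletal muscle form of subunit VIII, had the lowest level of all members, 4.90, at the 27.0 percentile, beside 11.83 for *Cox8a*. *Cox4b*, the symbol for *Cox4i2*, the form best known from lung and low oxygen, had a level of 5.01, at the 29.1 percentile. *Cox6a2*, of heart and skeletal muscle, stood at 6.26, at the 49.5 percentile, next to the median of all probe sets. *Cox7ah*, the symbol for *Cox7a1*, also of heart and skeletal muscle, stood at 7.60, at the 66.2 percentile. Each of these genes has a single probe set, so a dim level cannot be told apart from a probe set that responds poorly. Of 6 markers of cardiac and skeletal muscle, 5 had a probe set in the table. Their levels were 4.29 to 5.53, all below the median of all probe sets. That of *Actc1* and the brightest of *Myh7* were assigned by symbol alone. *Myh6* was the only one of these markers with genotype means in the authors' class comparison, 45.3 in WT and 23.7 in *Alkbh1-/-* mESCs.

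Complex V had a median of 12.41 over its 11 genes, with a range of 11.75 to 13.24. *Atp5b* and *Atp5a1*, for the catalytic head, had levels of 13.24 and 13.04, and *Atp5c1*, for the central stalk that turns within it, had a level of 12.88. The genes of the peripheral stalk stood at 12.76 for *Atp5j*, 12.54 for *Atp5f1* and 12.15 for *Atp5o*. The *Atp5j* value is from a probe set with the gene ID of *Atp5j2*, and the probe set with the gene ID of *Atp5j* stood at 12.22. The small membrane subunits *Atp5j2*, *Atp5k* and *Atp5l* had levels of 12.41, 12.15 and 12.14. *Atp5g2* and *Atp5g1* encode the same mature c subunit of the proton-carrying ring and had levels of 12.06 and 11.75, the lowest 2 of the complex. All 11 genes were at or above the 97.0 percentile.

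The choice of probe set moved the level of a gene far more in some members than in others. A single probe set was present for 15 genes and up to 5 for the other 21. Without the rows that carry the gene ID of another gene, 19 genes still had several, and their brightest and dimmest probe sets were apart by a median of 0.84 on the log2 scale, from 0.27 for *Ndufv1* to 7.59 for *Cox5b*, whose probe sets ran from 5.67 to 13.26. The gap was over 2 in 7 genes. *Cox8a* had probe sets at 11.83 and at 4.79, *Ndufb9* at 11.74 and at 4.68, and *Atp5c1* at 12.88 and at 6.29. Of the 72 probe sets, 64 carried the gene ID of the same gene, 5 carried none and 3 carried that of another gene, namely the brightest row of *Atp5j* (*Atp5j2*), a dimmer row of *Uqcrc1* (*Gripap1*) and a dimmer row of *Cox7a2l* (*Pygb*). The other probe set of *Atp5j* had a level of 12.22.

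Between genotypes, a value could be given for 1 member. The authors' class comparison gives the geometric mean intensity of each genotype, but only for the 4326 entries that passed their filter and a nominal threshold. Among members, *Ndufa1*, for a small membrane-arm subunit of complex I encoded on the X chromosome, had a mean intensity of 4289 in WT and 7228 in *Alkbh1-/-* mESCs. The level in *Alkbh1-/-* mESCs was 1.69-fold that in WT, a log2 ratio of 0.75. Centred on the median log2 ratio of all listed entries, which is 0.42, the ratio was 0.34. The smallest absolute log2 ratio in the list was 0.37, and 2198 joined entries were higher and 2067 lower. That median therefore lies near the inner edge of the larger side and does not measure a general shift. Read from the row where the identifier of *Ndufa1* is printed, its log2 ratio was -0.55. The identifiers in that list stand in another order than the values, and those values belong to another probe set. The spread between arrays behind these means is not known here, and the difference was not tested.

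No genotype mean was listed for the brightest probe set of the other 35 members, which include all members of complexes II to V. The members' share was 1 of 36, or 2.78%, and the share over all genes was 13.7%. Among the genes above the 90th percentile of level, 1 of 32 members was listed, or 3.12%, beside 8.96% of all genes. A mean more than 1.5-fold higher in *Alkbh1-/-* mESCs was found for 1 of 36 members, against 4.35% of all genes, and a mean more than 1.5-fold lower for none of the 36, against 4.37%. The count of 1 fell to 0 at a threshold of 2-fold, and also after centring, whose median does not measure a general shift. The smallest ratio in the list was 1.29-fold. A gene can be missing because of the filter or the threshold, which cannot be told apart. Its entry can also be among the 61 that were not joined, a number that includes any entry whose nearest probe set another entry took. The absence of a gene from the list therefore does not show that its level was the same in both genotypes.

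Counting every probe set in place of the brightest, another 2 were listed under members' symbols. A dim probe set of *Atp5g2*, at a level of 6.30, had a mean intensity of 90.7 in WT and 68.9 in *Alkbh1-/-* mESCs, a log2 ratio of -0.40. The brightest probe set of the same gene, at 12.06, was not listed. The row of *Uqcrc1* that carries the gene ID of the X-linked gene *Gripap1* had a mean intensity of 144 in WT and 209 in *Alkbh1-/-* mESCs, a log2 ratio of 0.54.

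**Figure D2:**
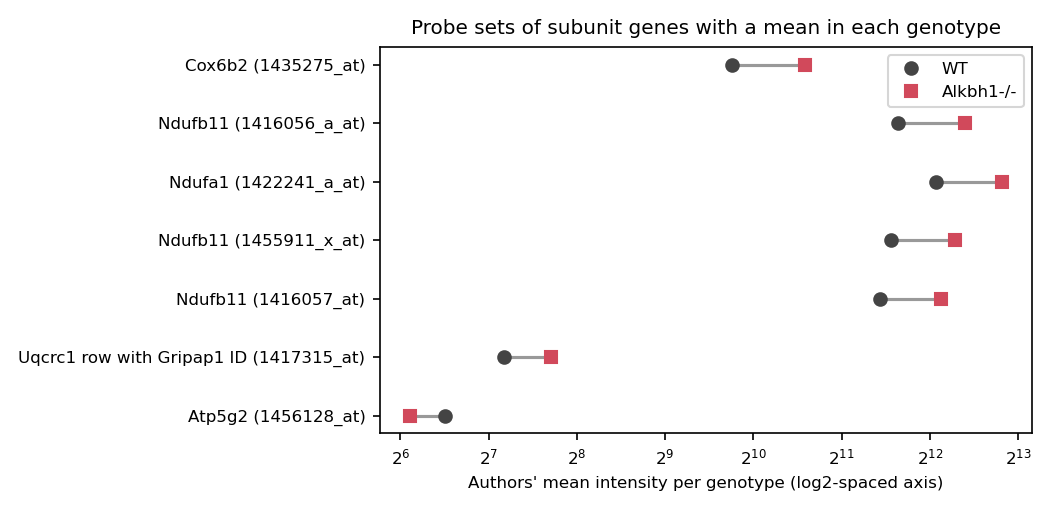
Authors' mean intensity in WT (circles) and *Alkbh1-/-* mESCs (squares), on a log-spaced axis. All listed probe sets assigned to a subunit gene by symbol or gene ID are shown. They include *Ndufb11* and *Cox6b2*, which the table holds under other symbols or none. The row of *Uqcrc1* carries the gene ID of *Gripap1*, which is no subunit gene. *Ndufa1* lies at 4289 and 7228, and the *Atp5g2* probe set is the only one that is lower in *Alkbh1-/-* mESCs.

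Other X-linked genes are described beside *Ndufa1*. Of 501 X-linked genes with a probe set in the table, 268 were listed, or 53.5%. In *Alkbh1-/-* mESCs, 249 of these were higher and 19 lower. Their median log2 ratio was 0.75, with quartiles of 0.59 and 0.97. Of 14414 genes on other chromosomes, 1928 were listed, or 13.4%, of which 786 were higher and 1142 lower. Their median log2 ratio was -0.50, with quartiles of -0.71 and 0.59. As small ratios are missing from the list, this median shows which side is larger and is not a typical ratio. The ratio of *Ndufa1* stood near the middle of the listed X-linked genes, above 138 and below 129 of them. Of the 33 members that carry their own gene ID, on 15 chromosomes, *Ndufa1* was the only one on the X. The part of X linkage in the ratio of *Ndufa1* was not tested.

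**Figure D3:**
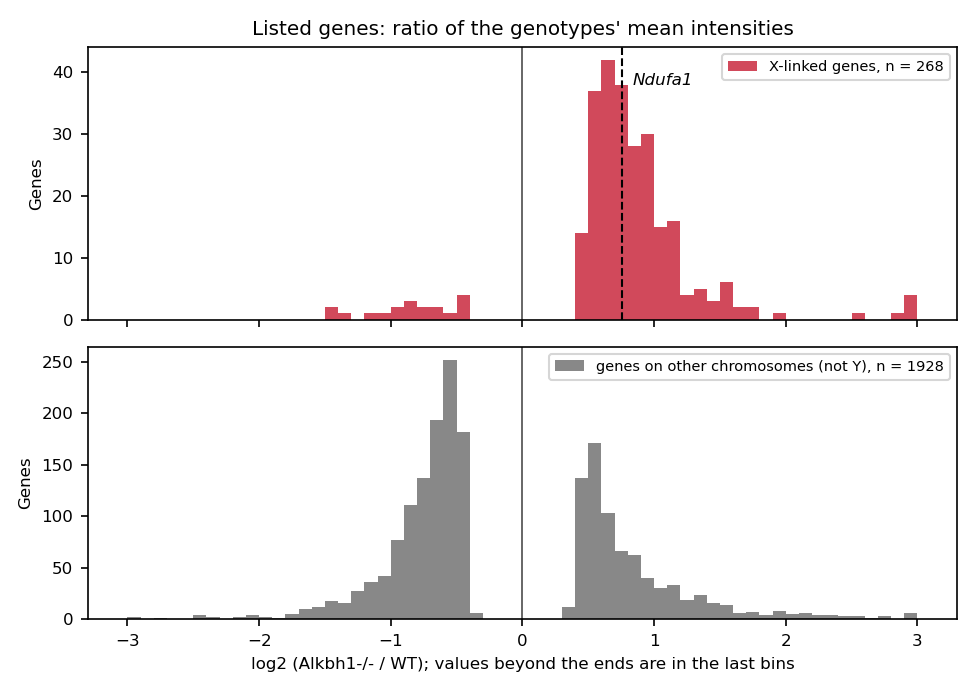
Number of listed genes by log2 ratio of the authors' mean intensities, *Alkbh1-/-* over WT, for 268 X-linked genes (top) and 1928 genes on other chromosomes (bottom). The dashed line marks *Ndufa1* at 0.75, within the bulk of the X-linked genes, and no listed gene lies close to 0, the smallest ratio in the list being 1.29-fold.

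Markers of the cultures are given beside these values. The targeted gene, *Alkbh1*, had a mean intensity of 761 in WT and 25.7 in *Alkbh1-/-* mESCs at its brightest probe set, 29.6-fold lower, and of 120.0 and 34.6 at its other, 3.47-fold lower. All 10 markers of pluripotent cells had levels from 10.05 to 14.49, and 5 were listed at their brightest probe set. *Nanog* stood at 3852 in WT and 8267 in *Alkbh1-/-* mESCs, *Klf4*, *Esrrb* and *Zfp42* were also higher and *Utf1* was lower. *Fgf4* was listed only at probe sets other than its brightest, with log2 ratios of 0.46, 0.49 and 0.58. Of the 10 fibroblast markers, with levels from 5.08 to 11.82, 3 were listed at their brightest probe set. All 3 were lower in *Alkbh1-/-* mESCs, among them *Col1a1* (527 in WT and 253) and *Col3a1* (2002 and 1087). Their summed mean intensities were 2652 in WT and 1426 in *Alkbh1-/-* mESCs. *Col1a2* was listed only at a dimmer probe set (1020 and 488), not at its brightest. The other markers have no genotype means, so these sums do not describe the fibroblast signal as a whole. The part of feeder cells in the members' values was not tested. In such bulk samples, fewer cells of a type and less RNA per cell cannot be told apart.

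Other genes of the pathway were described by the same measures. Of 23 assembly factors of complexes II to V, 20 had a probe set in the table. Their median level was 8.82, with a range of 6.41 to 11.23, and 3 were above the 90th percentile. *Sco1*, which helps to load copper into complex IV, was the only one listed, with mean intensities of 71.6 in WT and 100.9 in *Alkbh1-/-* mESCs, a log2 ratio of 0.49. Of 14 regulators and genes of mitochondrial DNA maintenance, 13 had a probe set in the table, with levels from 7.31 to 11.51. *Polg*, the mitochondrial DNA polymerase, was the only one listed at its brightest probe set, with 309 in WT and 438 in *Alkbh1-/-* mESCs, a log2 ratio of 0.50, and its other probe sets had log2 ratios of 0.55 and 0.50. Neither gene was past 1.5-fold.

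The 6 genes of electron carriers and nucleotide exchange had levels from 9.54 to 13.58. *Cyct*, the testis form of cytochrome c, was lower in *Alkbh1-/-* mESCs, with mean intensities of 1321 in WT and 419 in *Alkbh1-/-* mESCs, 3.15-fold lower, and *Cycs*, the somatic form, was not listed. Of 4 markers of testis and germ cells, 2 had a probe set in the table, with levels of 4.20 and 5.94, neither of them listed. *Slc25a5*, an X-linked gene for an ADP/ATP carrier, had 8 probe sets, of which the 4 brightest, at 13.33 to 13.58, were not listed. The 4 dimmer ones, at 10.10 to 11.57, were listed with log2 ratios from 0.48 to 0.71, but they carry no gene ID and are assigned by symbol alone. A dim probe set of *Atpif1*, the inhibitor of complex V, had a log2 ratio of -0.54, and its brightest was not listed.

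Promoter windows of 28 members were in the reference table, and a gene with several windows was counted where any of them held a motif. The core motif of NRF1, GCATGCGC, was found on either strand in 6 of the 28, or 21.4%, and in 3.05% of the 27025 genes in the table. The 6 genes were *Ndufa6*, *Uqcrc1*, *Cox6a1*, *Atp5g2*, *Atp5k* and *Atp5l*. The YY1 motif, AAGATGGCG, was found in 4, or 14.3%, against 1.64%, in *Ndufc1*, *Ndufs4*, *Atp5j* and *Atp5j2*. The windows of *Atp5j*, on chromosome 16, were taken by symbol and are not that of *Atp5j2*, on chromosome 5. The GABP and ETS motif, CCGGAAGT, was found in 1, *Cox8a*, or 3.57%, against 4.31%. Any of the 3 was found in 11, or 39.3%, against 8.47%, and no member held more than 1 kind. A match is a description of the letters in the window and does not show binding, and the factors themselves had levels of 9.21 for *Nrf1*, 10.54 for *Gabpa* and 11.51 for *Yy1*, none of them listed.

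**Figure D4:**
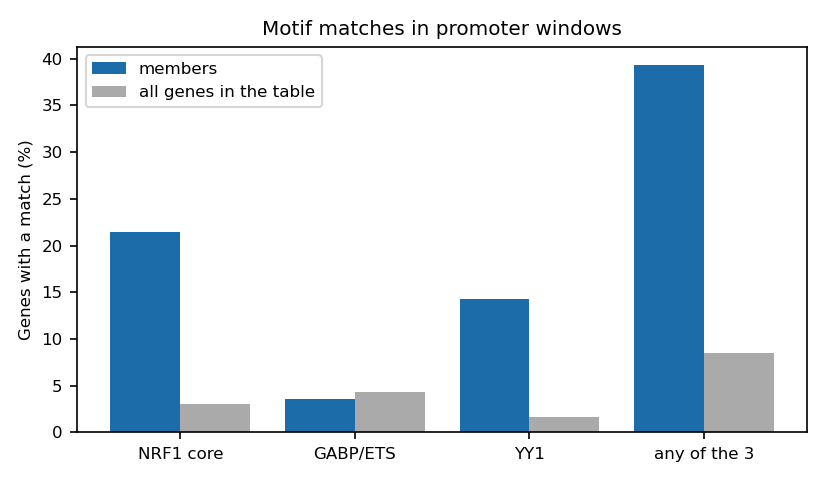
Share of genes, in percent, whose promoter window holds each motif on either strand, for 28 members (blue) and all 27025 genes of the reference table (grey). The members' bars stand at 21.4% for NRF1, 3.57% for GABP and ETS and 14.3% for YY1, next to 3.05%, 4.31% and 1.64% of all genes.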

How the data were processed

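Total RNA of 3 WT and 3 *Alkbh1-/-* samples was labelled and hybridized to Affymetrix mouse arrays, which the authors normalized with the robust microarray analysis (RMA) algorithm. The deposited log2 values are the mean of each of 33142 probe sets over all 6 arrays. The deposited intensity values are geometric means per genotype, from a class comparison that lists 4326 entries. Both tables also hold the authors' own comparison (log2 differences, folds, test statistics and p-values with their adjustments), none of which was used. The class read as WT has a name that differs from that of the WT samples and was identified from the description deposited with the tables.

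The entries of the class comparison stand beside identifiers in another order. They were therefore joined to the probe sets by their mean level, within 0.0001 on the log2 scale, which placed 4265 of them. Of these, 8 carry the same identifier in their own row, and 4258 of the identifiers occur somewhere in the list. The join was tested on simulated entries built from the same mean levels, which cannot show whether the genotype means stem from the same values. The log2 ratio was computed from both genotype means. Past a fold means over 1.5-fold in either direction. No test was run, because means carry no spread. Gene IDs were matched to RefSeq (GRCm38.p6) for chromosomes, and promoters by gene ID or symbol. Python 3.11.15, pandas 2.3.3, numpy 2.4.6 and matplotlib 3.10.9 were used.

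Genes with genotype means, the highest and lowest gene of each complex, the tissue-isoform families and *Alkbh1* were to be named, and the remaining members were named for completeness. *Ndufb11* and *Cox6b2*, and the genes picked from the pathway and marker lists, were named after their values were seen. Members and lists were chosen with earlier results of these data known. The alternatives were other folds, joins and choices of probe set, and centring. The number of arrays limits the precision.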

Additional observations from a re-analysis of the deposited data

How the results depend on the processing

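The join by mean level decided the direction for *Ndufa1*. Read from the row where its identifier is printed, its log2 ratio was -0.55 in place of 0.75, because those values belong to another probe set. Centred on the median of all listed entries, which is 0.42, the ratio was 0.34 and the count of members past 1.5-fold fell from 1 to 0. That median comes from a list that lacks small ratios, so it does not measure a general shift. At 2-fold the count was 0 as well. Counting any probe set of a gene, 3 members had genotype means, and 2 without rows that carry the gene ID of another gene, an alternative chosen after seeing the data. The median level with the mean over all probe sets of a gene was 11.53 for complex I, 11.15 for II, 10.67 for III, 11.24 for IV and 12.14 for V. Without probe sets whose suffix marks possible cross-hybridization or several transcripts, it was 11.15 over 6 genes for complex I, 9.61 for III, 8.55 over 11 genes for IV and 12.14 over 9 genes for V, and the values of III and IV then rest on the rows with the gene IDs of *Gripap1* and *Pygb*. Without rows of another gene's ID, also chosen after seeing the data, complex V was at 12.22. The other 23 values under an alternative moved by less than the limits set. *Ndufa1* has a single probe set, with such a suffix, so leaving it out gives no value. No paired analysis was possible because the tables used hold no values of single arrays, and leaving out each replicate was not run for the same reason.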

Other observations

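Genes of these families that the table holds under other symbols, or under none, were found by gene ID. The match was by the start of the symbol, so it can include assembly factors and other genes that are no subunits. RefSeq holds 97 protein-coding genes with a symbol of these families. Named by gene ID only were 56 genes with such a symbol, not restricted to protein-coding ones. Their levels ran from 4.02 to 13.35, with a median of 11.25. *Ndufb11*, for an accessory subunit of complex I encoded on the X chromosome, was listed at all 3 of its probe sets, with WT means of 3188, 2762 and 3008 and *Alkbh1-/-* means of 5373, 4465 and 4995. Their log2 ratios were 0.75, 0.69 and 0.73, beside 0.75 for *Ndufa1*. *Cox6b2*, the testis form of a complex IV subunit, encoded on chromosome 7, had a mean intensity of 866 in WT and 1537 in *Alkbh1-/-* mESCs, a log2 ratio of 0.83. These 2 genes were the only ones of the 56 with genotype means. The differences were not tested.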
